A study of Mus musculus with 6 samples.

Results

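Tnf, Ptgs2, Acod1, Ccl2, C3, Cfb, C4b and Lcn2 are genes of inflammatory signalling, complement and iron-binding host defence. They were chosen by symbol, with their values in the authors' deposited expression table already known. That 8 of the 8 are among its 570 rows is thus by choice and no result. The series describes osteoclasts, the multinucleated cells that resorb bone, derived from primary cells of wildtype C57BL/6 mice under RANKL, the osteoclast-inducing ligand, together with the growth factor M-CSF. The 6 samples, labelled day 3 throughout, comprise 3 controls and 3 that also received interferon-gamma while they differentiated. Whether the samples of a group came from separate animals or cultures is not given in the labels, so the spread between them may be technical. The values below are those of the columns named CTRL1, CTRL2 and CTRL3, here control 1 to control 3, which match the titles of the control samples by name alone. The same samples carry the library names BLANK1 to BLANK3, and the table may not describe these samples at all: its columns CTRL and its row content, given below, do not settle it. Every value below is therefore that of a column named control, and not shown to be that of an osteoclast culture. The table's other 3 columns of values match no sample label and were not used, so the effect of interferon-gamma was not analysed here and what follows is a description of levels in 1 group.

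Tumour necrosis factor, encoded by Tnf, is a cytokine that binds its receptors on many cell types, activates NF-κB and induces further mediators. Among the genes that inflammatory signals are known to induce in myeloid cells are Ptgs2, the cyclooxygenase that starts prostaglandin synthesis, Acod1, the enzyme that makes itaconate from cis-aconitate, and Ccl2, the chemokine that draws monocytes. TNF and prostaglandins are also known to promote osteoclast formation. Complement is a cascade of plasma proteins: C3 is the component on which its pathways meet, factor B (Cfb) supplies the protease of the alternative pathway, and C4b encodes a component of the classical and lectin pathways. Lipocalin 2 (Lcn2) binds bacterial iron-carrying siderophores and is made by neutrophils, macrophages and epithelium.

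The table is titled as a final list of differentially expressed genes, but the selection rule is not stated, and absence from it is no sign that a gene was silent. The values are a normalised expression signal whose unit is not named, and the sequencing depth is unknown. The markers of the labelled cell type were mostly outside the table. Of 15 osteoclast markers only Car2, a carbonic anhydrase, was a row, at 9.97, 11.2 and 11.6 in controls 1 to 3; Acp5, Ctsk and Calcr were not among the rows. Of 13 macrophage markers 0 were rows. Of 13 skeletal muscle markers 11 were rows, with values that summed to between 579 and 595 in a column. Of 15 markers of stratified epithelium 3 were rows, summing to between 604 and 611. Most of that sum was Lce1b (mean 363) and Sprr2d (mean 229), with Flg at 16.4. Krt5, Krt14, Krt1, Krt10 and Trp63 were not among the rows. The share over all genes was not computed for these lists, so the counts name no cell type. Lcn2 is a gene that epithelium also makes, and the part of any other cell type in the members' values was not tested. In a bulk library, fewer cells of a type and less RNA per cell cannot be told apart.

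The 8 members spanned a wide range of levels, and Lcn2 stood far above the others. Together they summed to 84.2, 82.3 and 83.1 in controls 1 to 3, or 0.617% ± 0.00161 (SD, n = 3) of the summed values of the table. Lcn2 held 80.2% of the members' sum. The other 7 members summed to 15.8, 16.9 and 16.8 in the same columns. No member was listed at 0 in any column. The mean was above the median of the 570 row means (1.18) for 6 members and below it for Ptgs2 and Acod1. The median of the members' means was 2.51.

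**Figure D1:**
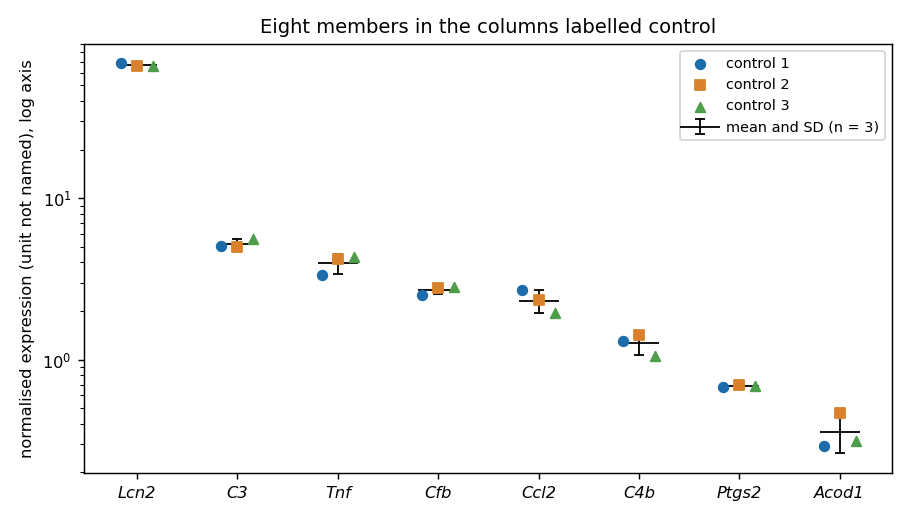
Deposited expression values (unit not named, log axis) of the 8 members in the 3 columns labelled control; points are single columns, the horizontal bar is the mean and the whiskers are the SD (n = 3). Lcn2 lies at 66.7, the other 7 members between 0.358 and 5.21.

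Among the inflammatory mediators, Tnf was the highest. Its value was 3.33 in control 1, against 4.20 and 4.31 in controls 2 and 3, a mean of 3.95 ± 0.538 (SD, n = 3). Controls 2 and 3 lay close together and control 1 was 15.7% below the mean. Tnf ranked 155 of the 570 rows by its mean, and between 148 and 165 in single columns.

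Ccl2, the monocyte chemokine, went the other way between the columns. It stood at 2.69, 2.33 and 1.95 in controls 1 to 3, a mean of 2.32 ± 0.365 (SD, n = 3). Its highest column was the one in which Tnf was lowest, and its lowest was the one in which Tnf was highest. The ratio of the Tnf value to the Ccl2 value was 1.24, 1.80 and 2.21 in controls 1 to 3, a 1.78-fold range. That it is wider than the 1.30-fold range of Tnf or the 1.37-fold range of Ccl2 follows from the opposite order by arithmetic. With 3 columns of 1 group, no correlation between these genes is given.

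Ptgs2 and Acod1 were low in the columns labelled control. Ptgs2 was listed at 0.676, 0.698 and 0.684 in controls 1 to 3, a mean of 0.686 ± 0.0111 (SD, n = 3), and its columns were almost level. Acod1 was listed at 0.291, 0.466 and 0.315, a mean of 0.358 ± 0.0951 (SD, n = 3). Control 2 stood apart from the others for Acod1, 30.5% above the mean, and the highest column was 1.60 times the lowest. The Ptgs2 value was between 1.50 and 2.32 times the Acod1 value in the single columns. The Tnf value was between 4.92 and 6.31 times the Ptgs2 value and between 9.01 and 13.7 times the Acod1 value.

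The complement genes fell in the order C3, Cfb, C4b in all 3 columns. C3 stood at 5.04, 4.96 and 5.62 in controls 1 to 3, a mean of 5.21 ± 0.358 (SD, n = 3), and ranked 129 of 570. Cfb stood at 2.52, 2.77 and 2.83, a mean of 2.71 ± 0.163, and ranked 182. C4b stood at 1.30, 1.43 and 1.05, a mean of 1.26 ± 0.193, and ranked 275, close to the middle of the table. The values of the 3 genes did not overlap. The ratio of the C3 value to the Cfb value, the central component against the alternative pathway protease precursor, was 2.00, 1.80 and 1.98 in controls 1 to 3. The ratio of the C3 value to the C4b value ranged more widely, at 3.87, 3.48 and 5.36, and control 3, where C3 was highest and C4b lowest, gave the largest.

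For Lcn2 the columns held 68.4, 65.5 and 66.4, a mean of 66.7 ± 1.46 (SD, n = 3). The 3 columns differed by at most 1.04-fold, and Lcn2 ranked 33 in each of them. Its value was between 11.8 and 13.6 times that of C3, the next member, in the single columns. Of 15 neutrophil markers 3 were rows of the table, and these were low: the collagenase gene Mmp8 at 0.731 ± 0.195, the granule gene Ngp at 0.640 ± 0.187 and the cathelicidin gene Camp at 0.282 ± 0.274 (SD, n = 3), the last listed at 0 in control 1. Their summed values were 1.12, 1.54 and 2.30 in controls 1 to 3. S100a8, S100a9, Mpo, Elane, Ltf and Ly6g were not among the rows. The part of neutrophils in the Lcn2 value was not tested.

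In descending order the members were Lcn2, C3, Tnf, Cfb, Ccl2, C4b, Ptgs2 and Acod1. This is an order of deposited values; it compares transcript levels only if the unnamed unit is per length. Of the 7 neighbouring pairs, 6 did not overlap between their 3 values. Cfb and Ccl2 were the exception: their means differed by 1.17-fold, and Ccl2 was above Cfb in control 1 and below it in controls 2 and 3. C3 was above Tnf in 3 of 3 columns, by 1.18-fold to 1.51-fold. The members were picked with their values known, so these differences are given without a test.

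**Figure D2:**
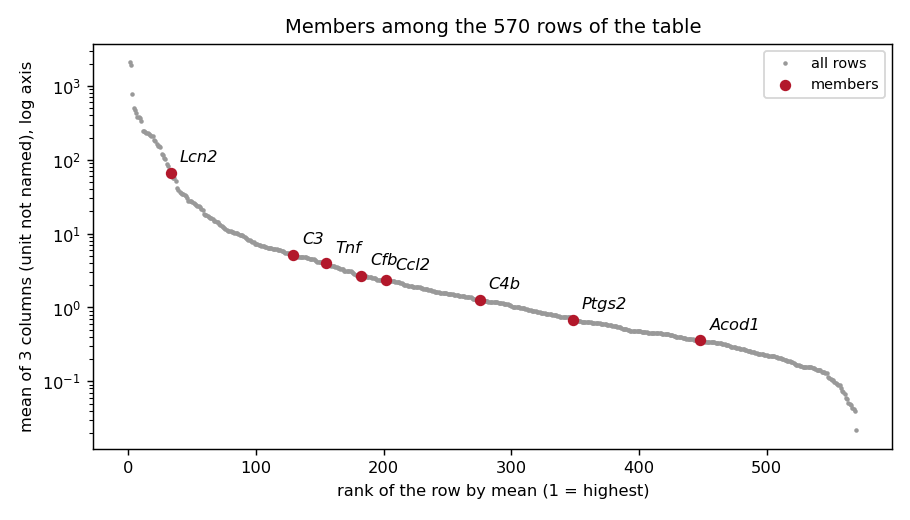
Mean of the 3 columns labelled control (unit not named, log axis) for all 570 rows of the table, ordered from the highest (rank 1) to the lowest; grey points are all rows and red points the 8 members. Lcn2 lies at rank 33, in the steep upper end, and the other members are spread from rank 129 (C3) to rank 448 (Acod1).

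The spread between columns also differed among the members. The coefficient of variation (the SD as a percent of the mean) was 1.62% for Ptgs2, 2.19% for Lcn2, 6.01% for Cfb and 6.87% for C3. It was 13.6% for Tnf, 15.3% for C4b, 15.7% for Ccl2 and 26.6% for Acod1. Low rows of the table vary more, so each member was set beside the 50 rows nearest to it in level. The spread was above the median of those rows for 4 of 8 members, and for 2 of 8 without control 3. Any row lies above such a median about as often as below it, so the count is no trait of the members. The share over all rows is not given. Ptgs2 had a coefficient of variation 0.110 times the 14.7% median of its 50 rows, of which 49 varied more. With the columns scaled to the same median its factor was 0.315, close to the 0.335 of Lcn2 on that scaling. Without control 3 the Ptgs2 factor was 0.171, above the 0.142 of C3, and without control 2 it was 0.0537. Tnf varied 1.43 times as much as the median of its 50 rows, with 12 of them above it. This rested on control 1: without it the Tnf factor was 0.222, against 2.36 without control 2 and 2.30 without control 3. Acod1 varied 1.26 times as much as its like rows. From controls 1 and 2 alone, where it differed most, its factor was 1.90, and from controls 1 and 3 it was 0.331. Other members also changed sides with 1 column left out. The factor of C3 went from 0.780 to 1.60 without control 1. Without control 3, that of C4b went from 1.36 to 0.847 and that of Ccl2 from 1.21 to 0.937. The count without control 1 was also 4, but with C3 in place of Tnf.

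**Figure D3:**
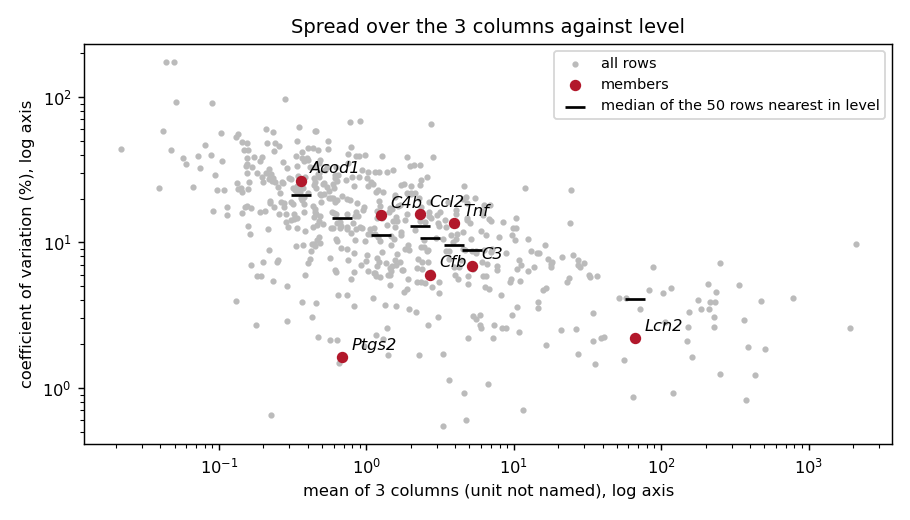
Coefficient of variation over the 3 columns labelled control (%, log axis) against the mean (unit not named, log axis) for the rows of the table in grey and the members in red; each black dash is the median of the 50 rows nearest in level to a member. Ptgs2 (1.62%) lies far below its dash and Tnf (13.6%) above it.

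No single column was high or low for the members as a whole. The highest value lay in control 1 for 2 members (Lcn2 and Ccl2), in control 2 for 3 (C4b, Ptgs2 and Acod1) and in control 3 for 3 (C3, Tnf and Cfb). The lowest lay in control 1 for 4 members. The median of all rows was 1.22, 1.16 and 1.21 in controls 1 to 3, lowest in control 2. Small differences between columns depend on this. With the columns scaled to the same median, the spread over that of like rows went from 0.110 to 0.315 for Ptgs2. For Lcn2 it went from 0.537 to 0.335. In the unscaled values Tnf and Cfb shared an order, with control 1 lowest and control 3 highest, and Ccl2 had the opposite one. Ptgs2 and Acod1 also shared an order, with control 1 lowest and control 2 highest, and Lcn2 had its opposite. C3 and C4b had orders opposite to each other. With 3 columns so few orders are possible that some members must share one. These matches are thus no sign of shared behaviour.

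**Figure D4:**
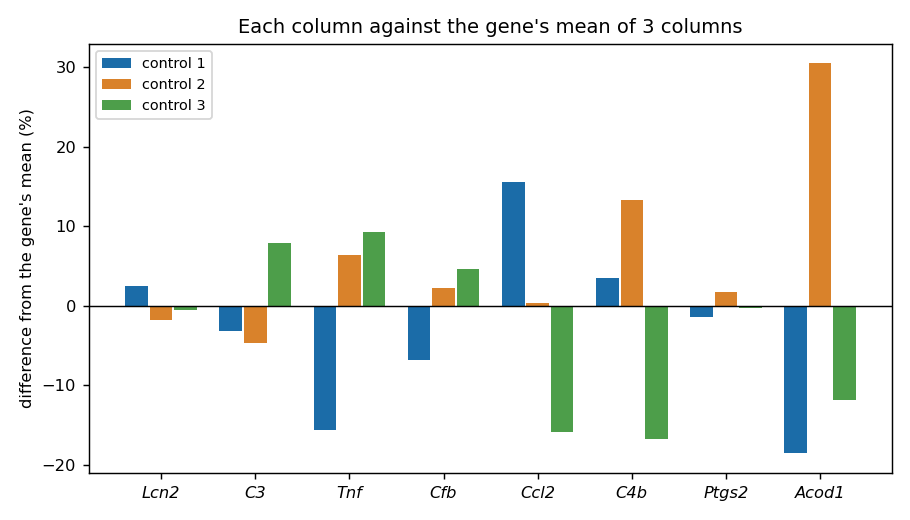
Difference of each column labelled control from the gene's mean of 3 columns (%), for the 8 members; bars start at 0. Control 1 is 15.7% below the mean for Tnf and 15.6% above it for Ccl2, and control 2 is 30.5% above it for Acod1.

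Partners of the members in the same pathways were mostly outside the table. It has only 570 selected rows, so most genes of any kind lie outside it, and the members are rows of it by choice. The share over all genes was not computed. The counts below are thus a listing and no result about the pathways. Of 23 complement components 3 were rows, and these were the members C3, Cfb and C4b; C1qa, C2, Cfd and Hc, which encodes C5, were not among the rows. Of 17 complement regulators and receptors 1 was a row, Vtn, which encodes the terminal pathway inhibitor vitronectin, at 0.208 ± 0.124 (SD, n = 3). Of 20 genes for TNF processing, its receptors and NF-κB signalling Tnf was the only row, and the receptor genes Tnfrsf1a and Tnfrsf1b were outside the table. Of 18 genes of prostanoid synthesis and reception only Ptgs2 was a row. Of 18 CC chemokines and receptors only Ccl2 was a row, and its receptor gene Ccr2 was not. On the list of inflammatory cytokines and inducible mediators 5 of 20 genes were rows. Beside Tnf, Ptgs2 and Acod1 these were Saa3, an acute-phase serum amyloid, at 1.93 ± 0.416 and Osm, which encodes oncostatin M, at 0.735 ± 0.115 (SD, n = 3). Atf3, a stress-induced transcription factor gene known to respond to itaconate derivatives, stood at 6.11 ± 0.451, and Steap3, a ferrireductase of iron uptake, at 1.28 ± 0.503 (SD, n = 3). In all, 34 of the 223 different genes on the 14 lists were rows.

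The rows nearest in level to the members came from several kinds of gene. Likeness was the largest log2 difference over the 3 columns, so it reflects level and says nothing of shared control. Nearest to Cfb was Irgm2, an interferon-inducible GTPase gene, with a difference of at most 0.04 on the log2 scale in a column, at 2.75 ± 0.172. C3 had Ckap2, a mitotic spindle protein gene, and Retnla, the resistin-like gene of alternatively activated macrophages, both at 0.06. The row nearest to Tnf was Soat2, an enzyme of cholesterol esterification, at 0.10, followed by Cd36, the fatty acid transporter, at 0.13. Ccl2 was nearest to Lyve1, the hyaluronan receptor of lymphatic endothelium and some macrophages, at 0.18. The muscle genes Mybpc2 and Xirp2 were nearest to C4b (at 0.11) and Ptgs2 (at 0.12). Nearest to Lcn2 were 2210017I01Rik, at 0.08, and Spink7, an epithelial protease inhibitor gene, at 0.13. Acod1 was nearest to Neurl1a, at 0.16.

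For Cfb and C4b, reads from stretches shared with another gene model cannot be assigned to the member with certainty. In mouse GENCODE release M21, on the earlier build GRCm38, 81.4% of the 50-base windows of the longest coding Cfb transcript also occur in Gm20547, a coding gene model on the same strand that overlaps 99.4% of Cfb and 54.5% of the neighbouring C2. The share is 81.0% with 100-base windows. C4b shares 35.2% of its 50-base windows and 16.5% of its 100-base windows with C4a, its near-identical copy, which the annotation does not list as coding. The C4b and C4a transcripts are 96.1% identical over 5367 aligned bases. For the other 6 members 0 windows of either length occurred in another gene. How such reads were divided in the authors' deposited values is not stated, and neither Gm20547 nor C4a is a row of the table. The C4 transcripts differ at 207 of the aligned bases, and a read over any of these can tell them apart. The 60 coding bases in which they differ most are shown as an example, with capitals for the 13 bases that differ.
C4b: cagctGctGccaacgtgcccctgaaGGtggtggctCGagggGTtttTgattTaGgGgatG
C4a: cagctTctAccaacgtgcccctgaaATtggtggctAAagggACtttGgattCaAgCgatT
These are bases 2761 to 2820 of the C4b transcript and 2755 to 2814 of the C4a transcript, from chromosome 17.

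Of the 8 members, 4 lie on chromosome 17. C4b, Cfb and Tnf are there in the class III region of the major histocompatibility complex, with 5 coding genes between C4b and Cfb and 33 between Cfb and Tnf in the RefSeq annotation, while C3 lies elsewhere on the chromosome. Ptgs2 is on chromosome 1 beside Pla2g4a, which encodes the phospholipase that releases its substrate, and Ccl2 on chromosome 11 beside the related chemokine gene Ccl7. Acod1 is on chromosome 14 and Lcn2 on chromosome 2. Neither Pla2g4a nor Ccl7 was among the rows.

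The RefSeq promoter table (GRCm38.p6) holds Tnf, Ptgs2, Acod1, C3 and Lcn2, and not Ccl2, Cfb or C4b. The 250 bases before the start are shown for the highest member, Lcn2, for the cytokine gene Tnf and for the lowest member, Acod1, with matches in capitals: the letters TATAAA of the TATA box and TTGCNNAA of the C/EBP factors, on either strand.
Lcn2: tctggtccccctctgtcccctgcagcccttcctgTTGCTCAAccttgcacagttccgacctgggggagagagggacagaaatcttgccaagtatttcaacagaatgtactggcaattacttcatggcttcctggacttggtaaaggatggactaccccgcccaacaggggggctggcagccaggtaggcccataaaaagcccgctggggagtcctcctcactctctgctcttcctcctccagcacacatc
Tnf: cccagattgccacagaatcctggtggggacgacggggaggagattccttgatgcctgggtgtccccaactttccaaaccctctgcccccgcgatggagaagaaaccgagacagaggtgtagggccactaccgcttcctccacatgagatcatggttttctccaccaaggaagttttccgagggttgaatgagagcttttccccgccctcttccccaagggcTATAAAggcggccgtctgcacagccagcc
Acod1: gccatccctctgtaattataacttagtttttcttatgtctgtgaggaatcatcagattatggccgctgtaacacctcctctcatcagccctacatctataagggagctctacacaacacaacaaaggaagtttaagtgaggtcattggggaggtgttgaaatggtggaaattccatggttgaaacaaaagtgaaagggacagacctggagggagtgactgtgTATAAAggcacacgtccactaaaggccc
They lie at chr2:32387740-32387989 on the minus strand (Lcn2), chr17:35202008-35202257 on the minus strand (Tnf) and chr14:103046762-103047011 on the plus strand (Acod1). TATAAA was found in Tnf, 29 to 24 bases before the start, and in Acod1, 28 to 23 bases before it. Counted anywhere in the 250 bases on either strand, it was in 2 of 5 members' promoters and in 12.4% of the 32851 promoters of the table. The share at the positions seen in Tnf and Acod1 was not computed. TTGCNNAA was found in Lcn2, Ptgs2 and C3, that is in 3 of 5 and in 9.56% of all. The match in Ptgs2 reads TTGCGCAA, 69 to 62 bases before the start, that in C3 TTGCGAAA, 45 to 38 bases before it, and that in Lcn2 TTGCTCAA, 216 to 209 bases before it. The letters of the NF-κB motif core GGGNNTTTC (3.72% of all promoters), the interferon-gamma activated site TTCNNNGAA (7.02%), the AP-1 motif TGANTCA (6.75%) and the CRE core TGACGT (6.47%) were in 0 of the 5 windows. No overlap between matches occurred in them. Each motif was sought as a single string, so sites spelled otherwise were not counted, and a lack of matches is no sign that sites are absent. These matches describe letters in a window of reference sequence, and binding was not measured in this series.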

How the data were processed

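Poly(A) RNA was captured on beads, fragmented and made into Illumina libraries, per the labels' protocols. Bowtie2 (version 2.4.4) appears in the submitters' processing notes, beside the genome builds GRCh37 and GRCm39, with no role given for any of them. No source used here names the tool that quantified expression. The authors deposited 1 table, which holds a normalised expression signal that is never negative, with 570 selected rows. Of its 6 columns of values, 3 match control titles and 3 match no sample label and were not used. With the depth unknown, no counting interval is given.

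Mean, SD, coefficient of variation and rank were computed over the control columns with Python 3.11.15, pandas 2.3.3 and numpy 2.4.6. The spread measure was tested on simulated rows whose spread did not depend on level, so that test could not show a correction for level. The planned limma test against interferon-gamma was not run. Members, lists and motifs were chosen with earlier results of these data known. Named genes are the 8 members, list genes in the table, and rows from the 3 nearest in level to each member. Alternatives were leaving out a column, the median, column scaling, row filters and other spread measures.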

Additional observations from a re-analysis of the deposited data

How the results depend on the processing

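No paired analysis was possible because the table has values matched to the control samples only (so no test against interferon-gamma was fitted under any setting). The members' means moved by less than 1 SD in 40 of 40 alternatives. Leaving out 1 of 3 columns, or taking their median, cannot move the mean by 1 SD. Only the column scaling could have come out otherwise. Over the rows with a gene symbol only, which leaves out 45 rows of assembled transcripts, ranks moved up by construction. They were 32 for Lcn2, 123 for C3, 148 for Tnf, 170 for Cfb, 187 for Ccl2, 249 for C4b, 311 for Ptgs2 and 407 for Acod1. The members' share of the summed values, 0.617%, was 0.730% without the highest row. The number of members above the median spread of rows of like level, 4, was between 2 and 4 with 1 column left out (2 without control 3). Rows of any kind would split about evenly around that median. In single columns, 27 or 28 of the 28 pairs of members kept the order of their means. The unknown depth leaves low members such as Acod1 without a counting error.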
